A study of Sus scrofa with 6 samples.

Results

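Backfat handles fatty acids that arrive from the blood through a short chain of proteins, and 9 of their genes were chosen by name for description: LPL, CD36, FABP3, FABP4, FABP5, SLC27A1, SLC27A4, ACSL1 and VLDLR. The members are the probe sets of the Affymetrix porcine array whose only gene symbol is one of these. They came to 10 probe sets of 7 genes, out of 6765 genes with a symbol of their own and 23999 probe sets in all. LPL, FABP5 and VLDLR had 2 probe sets each, FABP3, FABP4, SLC27A1 and ACSL1 had 1 each, and CD36 and SLC27A4, for which the annotation used lists no probe set, were not analysed here.

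The samples were from male pigs of a Pietrain and Landrace cross, bred as 15 pairs of full brothers. In each pair 1 brother was castrated surgically at 7 days of age and is called a barrow, and the other was left intact and is called a boar. All 30 pigs were weaned at 30 days, fed without restriction and killed at 175 days, when the middle backfat layer at rib 6 was taken. Equal amounts of RNA from 5 pigs of 1 kind went into each pool, 1 pool went onto each array, and each group had 3 arrays. A replicate is thus a pool, single pigs were not measured, and p-values refer to the spread between pools. The comparison asks how castration alters the fat of male pigs.

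In the textbook pathway, lipoprotein lipase (LPL) is made by adipocytes, carried to the capillary wall and held there by GPIHBP1, where it frees fatty acids from circulating triacylglycerol. VLDLR binds the lipoprotein particles, CD36 and the SLC27 proteins help fatty acids across the plasma membrane, and long-chain acyl-CoA synthetases such as ACSL1 trap them inside the cell as acyl-CoA. Fatty acid binding proteins (FABPs) carry them through the cytosol: FABP4 is the classical adipocyte and macrophage form, FABP5 the epidermal form that fat also makes, and FABP3 the form known best from heart and skeletal muscle. Many of these genes are known targets of PPARG.

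No member probe set passed the test between barrows and boars, and the differences were small, at most 0.24 on the log2 scale in either direction. Of the 9 that passed the filter on low signals (the upper 60% of probe sets by mean log2 signal, or about 92.7 signal units and more), 0 passed an adjusted p of 0.05 in limma, and 0 had an unadjusted p under 0.05. Over all 14399 tested probe sets 1.16% passed the adjusted threshold and 12.2% had an unadjusted p under 0.05. With the replicate number as a block the members' count was also 0, beside 2.35% of all tested. The median difference of the 9, barrow minus boar on the scale of log2(signal + 16), was 0.01, and 5 lay above 0 and 4 below. Over all tested probe sets the median was -0.01, with 46.6% above 0 and 53.4% below. Their median absolute difference was 0.08 against 0.12 over all tested, and their median standard error was 0.08 against 0.13. Bright probe sets differed less in general, and many members are bright. The median absolute difference was 0.05 among the 100 brightest tested probe sets, 0.07 in ranks 101 to 250 and 0.15 in ranks 10001 to 14399. The members' adjusted p-values in limma ran from 0.46 to 0.96. The tenth, SLC27A1, fell below the filter.

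**Figure D1:**
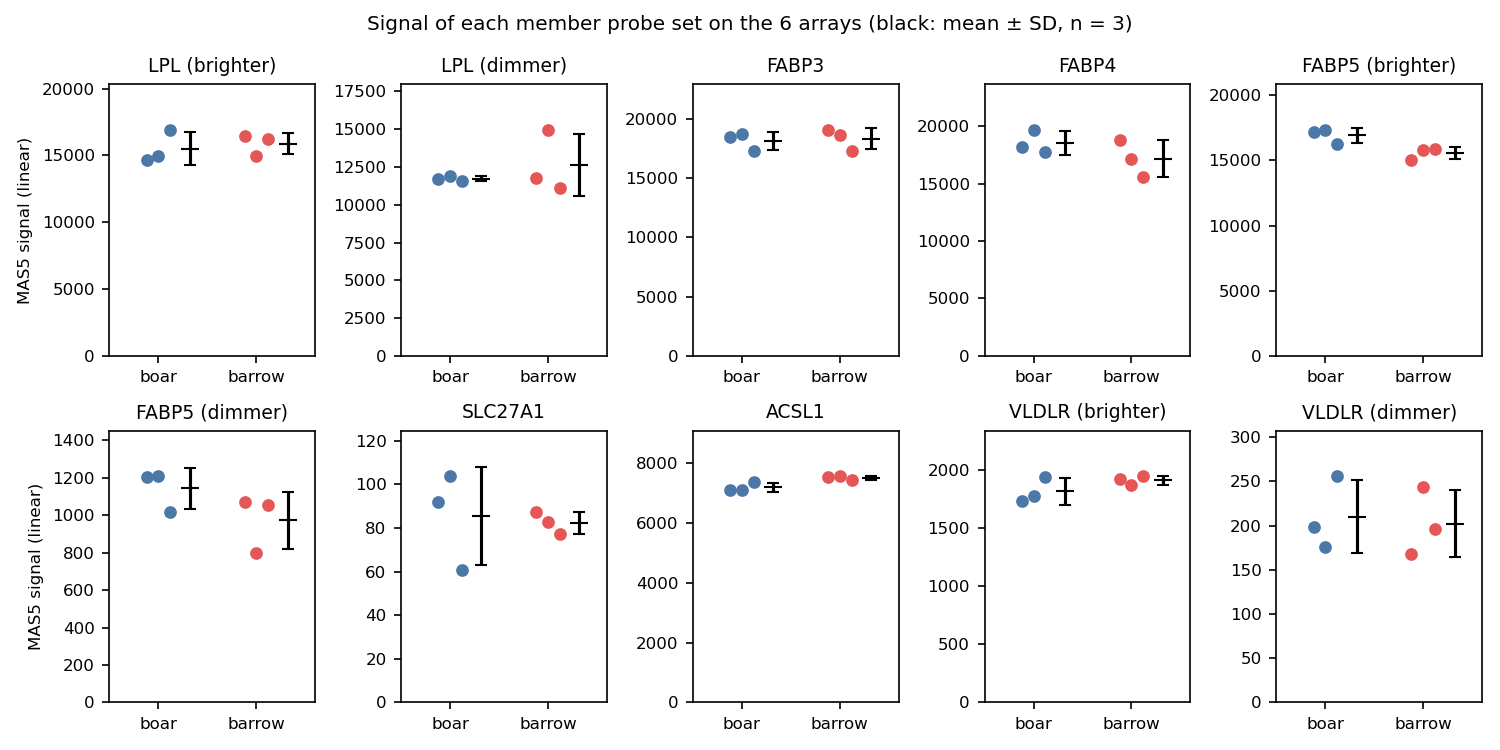
Signal intensity (linear MAS5 units, axes from 0) of the 10 member probe sets on the 3 boar arrays (blue) and 3 barrow arrays (red), with mean ± SD in black. The groups overlap in 8 panels, and only the brighter FABP5 probe set (lower in barrows) and ACSL1 (higher in barrows) separate them.

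LPL, the lipase that starts fatty acid uptake, gave 14620, 14974 and 16919 signal units on boar arrays 1, 2 and 3 and 16416, 14959 and 16188 on the barrow arrays in its brighter probe set. The groups overlapped throughout, with the highest value in a boar pool. The log2 difference was 0.03 (95% interval -0.13 to 0.19, limma adjusted p = 0.91), so the interval runs to 1.14-fold higher and 1.09-fold lower in barrows. The dimmer LPL probe set read 11700, 11913 and 11605 in boars and 11795, 14969 and 11108 in barrows. Here 1 array, barrow replicate 2, stood above the other 5, which lay within a narrow band, and the brighter probe set showed no such rise in that pool. Its log2 difference of 0.09 (95% interval -0.13 to 0.31, limma adjusted p = 0.77) became -0.04 without barrow replicate 2 (limma adjusted p = 0.83). The 2 probe sets did not move together over the 6 arrays (Pearson r = -0.44, a description without a test).

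VLDLR, the receptor that takes up triacylglycerol-rich particles, was also read by 2 probe sets. Its brighter probe set gave 1729, 1773 and 1944 in boars and 1923, 1870 and 1947 in barrows. All 3 barrow arrays lay in the upper part of the boar range or just above it, and each was above the boar array of the same replicate number, though by little in replicate 3. The log2 difference was 0.08 (95% interval -0.10 to 0.25, limma adjusted p = 0.77). The dimmer probe set, near 200 units, gave 198, 176 and 256 in boars and 167, 243 and 196 in barrows. The groups overlapped, with the lowest value in a barrow pool and the highest in a boar pool. The difference of -0.05 (limma adjusted p = 0.95) had a wide 95% interval of -0.46 to 0.36.

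SLC27A1, a membrane transporter with acyl-CoA synthetase activity of its own, was dim. It read 92.1, 104 and 60.5 in boars and 87.2, 82.8 and 77.2 in barrows, so the barrow values lay inside the boar range. Fitted without the filter, its difference was -0.02 (95% interval -0.56 to 0.52, limma adjusted p = 0.99), which leaves changes of up to 1.43-fold higher and 1.47-fold lower inside the interval. Detection calls were not used here, and whether this signal exceeds background is not known.

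ACSL1, the main long-chain acyl-CoA synthetase of adipocytes, gave 7095, 7093 and 7352 in boars and 7542, 7554 and 7426 in barrows. Every barrow pool was above every boar pool, with very small spread (boar mean 7180 ± 149 and barrow mean 7507 ± 70.5, SD, n = 3). The size was 0.06 on the log2 scale, or 1.05-fold (95% interval 0.95 to 1.15), and it did not pass (limma adjusted p = 0.74). Groups that do not overlap were found for 2 of the 9 tested member probe sets, 1 in each direction, beside 18.1% of all tested probe sets (8.38% higher and 9.76% lower in barrows).

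FABP4, the adipocyte fatty acid binding protein, read 18148, 19692 and 17794 in boars and 18764, 17174 and 15578 in barrows. The lowest 2 values were barrow pools, but barrow replicate 1 lay between the boar values. The boar mean was 18545 ± 1009 and the barrow mean 17172 ± 1593 (SD, n = 3), a log2 difference of -0.11 (95% interval -0.28 to 0.06, limma adjusted p = 0.61). FABP3, the muscle-type protein, gave 18462, 18714 and 17304 in boars and 19084, 18622 and 17316 in barrows. Its groups coincided almost array by array: replicate 3 was the lowest in both, and barrow minus boar was 0.05, -0.01 and 0.00 for replicates 1, 2 and 3. The log2 difference was 0.01 (95% interval -0.13 to 0.15, limma adjusted p = 0.96), and its sign changed under quantile normalization (-0.01).

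FABP3 was bright on all 6 arrays, while skeletal muscle markers were near the bottom of the scale. Of the 11 muscle genes with a probe set (of 16 listed), 10 fell below the filter, and their highest signal on any array was 92.9, for CKM, creatine kinase of muscle. The only one tested was DES, desmin, which smooth muscle also makes. DES read 113, 135 and 117 in boars and 209, 106 and 226 in barrows, a difference of 0.46 that did not pass (limma adjusted p = 0.52).

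FABP5, the epidermal-type protein, had the members' lowest p-values. Its brighter probe set gave 17169, 17356 and 16245 in boars and 15026, 15775 and 15897 in barrows, and every barrow value lay below every boar value. The boar mean was 16923 ± 595 and the barrow mean 15566 ± 472 (SD, n = 3). The log2 difference was -0.12, 1.09-fold higher in boars (95% interval of the log2 difference -0.25 to 0.01), with an unadjusted limma p of 0.068 and a limma adjusted p of 0.46. The dimmer probe set gave 1207, 1209 and 1019 in boars and 1071, 796 and 1053 in barrows. It lay on the same side, -0.24 (95% interval -0.52 to 0.04, limma adjusted p = 0.50), but boar replicate 3 lay below 2 of the barrow pools. Of the 10 epidermal markers listed, 5 had a probe set and only KRT10 passed the filter, at 307 to 363 in boars and 287 to 305 in barrows (-0.17, limma adjusted p = 0.64).

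For the 3 genes read by 2 probe sets, the within-array difference between them was compared between the groups. The brighter probe set's change exceeded the dimmer one's by -0.06 for LPL, 0.12 for FABP5 and 0.13 for VLDLR on the log2 scale. Exact 2-sided permutation tests over the 6 arrays gave p = 0.8, 0.7 and 0.5, each 0.8 after Benjamini-Hochberg adjustment over the 3, where 0.1 is the smallest p that 3 against 3 arrays allow. No outcome of this test could have passed 0.05, so it does not show whether the 2 readings of a gene differ.

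Differences among very bright MAS5 signals can be compressed, and whether this affected the members was not tested. Spread within groups also differed with brightness. The median residual SD on the log2 scale was 0.08 among the 100 brightest tested probe sets and 0.22 in ranks 10001 to 14399. FABP3, FABP4, the brighter FABP5 and both LPL probe sets had mean signals above 10000 and reached 48.8 to 64.5% of the highest signal on an array. In rank they ran from 53 to 206 among the 23999 probe sets, ACSL1 from 330 to 362 and the brighter VLDLR from 1855 to 2159. Among the 100 brightest tested probe sets, which include FABP3 and FABP4, 0 passed the adjusted threshold, and the largest absolute difference was 0.24. Among those ranked 101 to 250, which include LPL and the brighter FABP5, 4 passed (2.67%), and the largest difference was 0.47. Among those ranked 251 to 500, which include ACSL1, 10 passed (4%). Over all tested probe sets 1.16% passed, and among the dimmest, ranked 10001 to 14399, 0.205%. Scanner images were not used here, so saturation of single probes was not tested.

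**Figure D2:**
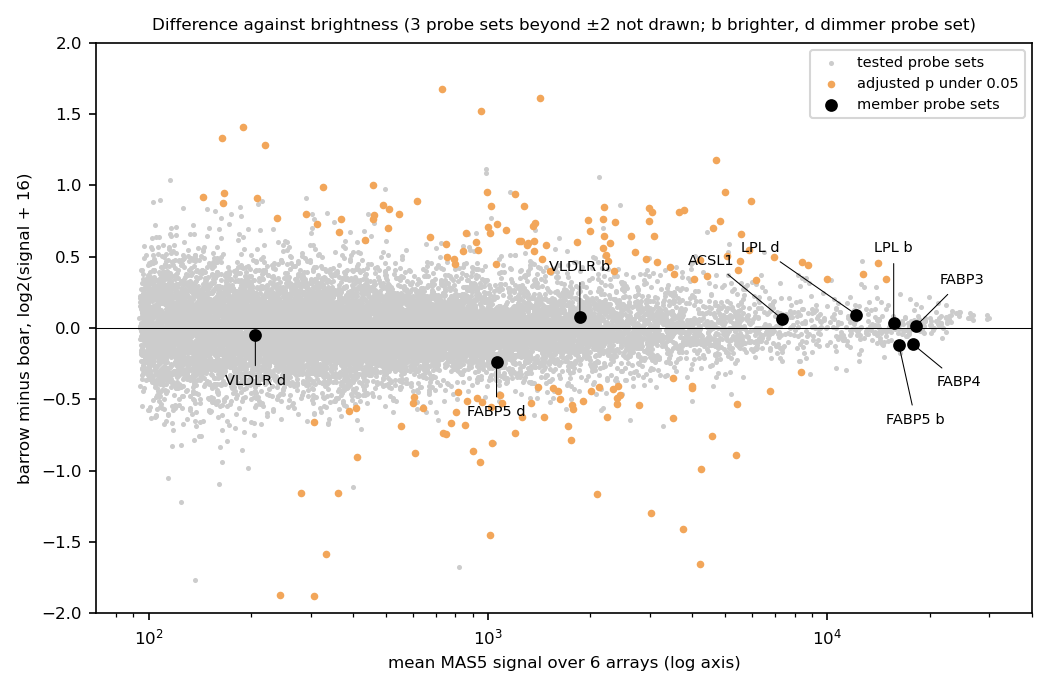
Barrow minus boar difference on the log2(signal + 16) scale (y axis) against mean signal over the 6 arrays (x axis, logarithmic) for all tested probe sets in grey, those with a limma adjusted p under 0.05 in orange and the 9 tested member probe sets in black. The scatter narrows above about 10000 signal units, where 5 of the members lie, and no member is orange.

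Members did not vary as a block from pool to pool. The brighter FABP5 and ACSL1 ran opposite to each other over the 6 arrays (Pearson r = -0.95), which are also the 2 members whose groups separated in opposite directions. FABP4 and FABP3 ran in part together (r = 0.68), and the brighter LPL ran with the brighter VLDLR (r = 0.88). These are 3 of 36 pairs, picked with their values known, over only 6 arrays that share their scaling, and are given as a description. They are not the 3 largest: ACSL1 with the brighter VLDLR had r = 0.80, and the dimmer LPL with the dimmer FABP5 -0.80. The brighter FABP5 with the brighter VLDLR had -0.79, and the dimmer FABP5 with ACSL1 -0.78. Likewise, among 7182 tested probe sets with a symbol, the profiles most like LPL were those of TIAL1, IGF2 and FUBP3 (r = 0.97 to 0.99) and those most like FABP4 were GHRHR, FGD1 and LSM12 (r = 0.98 to 0.99). With so few arrays 39 and 49 probe sets exceeded an r of 0.9.

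Other genes of fatty acid uptake, transport and activation gave 1 call. Of 53 listed, 34 had a probe set and 23 passed the filter, each represented by its brightest. In limma 1 of the 23 rose and 0 fell, beside 0.701% and 0.458% of all tested probe sets, 14 lay above 0 and 9 below, and the median difference was 0.05. Groups did not overlap for 2 higher and 2 lower genes, beside 8.38% and 9.76% of all tested probe sets.

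The gene that rose was GOT2, the mitochondrial aspartate aminotransferase, which has also been described as a fatty acid binding protein of the plasma membrane. It read 3997, 3940 and 3613 in boars and 5013, 5088 and 4763 in barrows. All barrow values were well above all boar values, and the log2 difference was 0.36, or 1.29-fold (95% interval 1.15 to 1.43, limma adjusted p = 0.040, and 0.021 with the replicate number as a block). The call is close to the threshold. It was lost without boar replicate 1, 2 or 3 (limma adjusted p = 0.15, 0.062 and 0.21), without barrow replicate 1 or 3 (0.15 and 0.088), without a filter (0.068), under median centring (0.069) and without the intensity trend (0.21), while the difference stayed between 0.32 and 0.39.

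GPIHBP1, the endothelial protein that anchors LPL in the capillary, had the lowest difference among the 23 tested genes. It gave 847, 803 and 681 in boars and 530, 632 and 532 in barrows, with every barrow pool below every boar pool. The log2 difference was -0.45, 1.36-fold higher in boars (95% interval of the log2 difference -0.71 to -0.19). It did not pass (limma adjusted p = 0.12, or 0.070 when replicate number was a block), but did with array weights (0.032) and without barrow replicate 2 (-0.53, 0.0498). Fewer capillary cells and less RNA per cell cannot be told apart in whole tissue.

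Endothelial markers lay on the same side as GPIHBP1. Of 12 tested, 10 were below 0 (53.4% of all tested probe sets) and 2 above. In 6 the groups did not overlap, lower in barrows (9.76% of all tested probe sets), and the median difference of the 12 was -0.20. Their summed signal was 18024 to 18823 in boars and 15991 to 16731 in barrows. TEK, the angiopoietin receptor, fell (-0.47, limma adjusted p = 0.047), a call lost without boar replicate 1 or 3 or barrow replicate 1 or 3 (limma adjusted p = 0.25, 0.24, 0.19 and 0.10), without a filter (0.068), under median centring (0.070), without the trend (0.15) and with the mean of its probe sets (-0.34, 0.29). PECAM1, a junction protein, had -0.14 (limma adjusted p = 0.41), and its dimmer probe set -0.24 (limma adjusted p = 0.18). CDH5, the endothelial cadherin, had 0.00 (limma adjusted p = 0.998), at 2653, 2898 and 2598 in boars and 2558, 2968 and 2626 in barrows. The dimmer CDH5 probe set had -0.04 (limma adjusted p = 0.93). The part of endothelial content in the GPIHBP1 value was not tested.

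**Figure D3:**
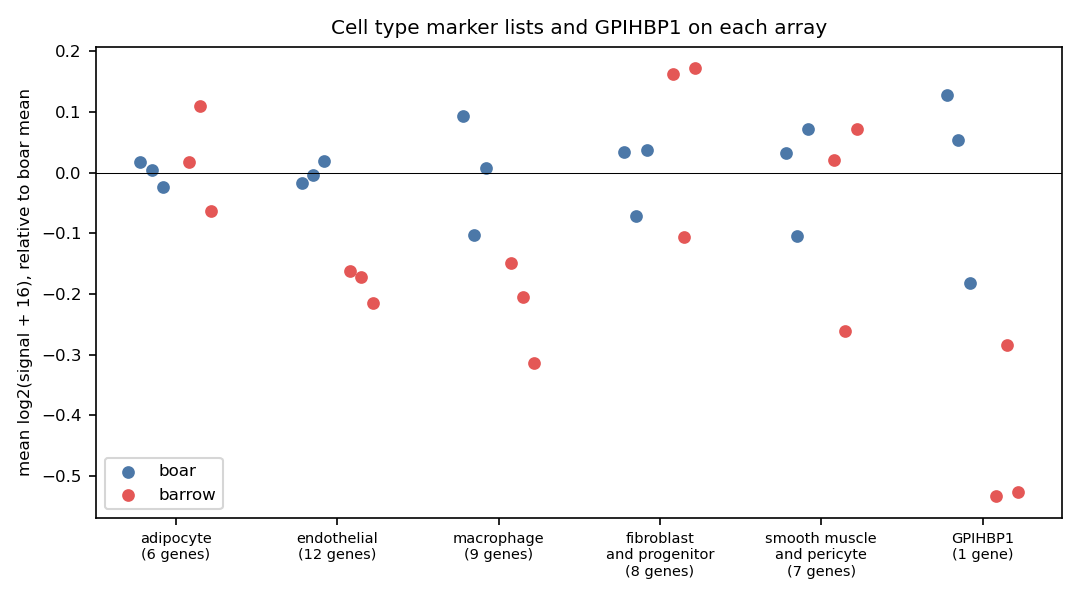
Mean log2(signal + 16) of the tested genes of 5 cell type marker lists, and of GPIHBP1 alone, on each boar (blue) and barrow (red) array, relative to the boar mean. Endothelial and macrophage lists sit lower on the barrow arrays, and adipocyte markers overlap between the groups.

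Adipocyte markers as a list did not shift to 1 side. Of 11 adipocyte genes listed, 6 were tested, 3 above and 3 below 0, with a median of -0.03 and a summed signal of 44496 to 47362 in boars and 41707 to 48358 in barrows. ADIPOQ, adiponectin, had -0.07 (limma adjusted p = 0.76), and LIPE, hormone-sensitive lipase, 0.13 (limma adjusted p = 0.66). LEP, leptin, was the 1 that rose (0.58, limma adjusted p = 0.021). That call was lost without boar replicate 1 or 3 or barrow replicate 1 (limma adjusted p = 0.14, 0.067 and 0.091), without the trend (0.11) and with the mean of its probe sets (0.067). With the replicate block RBP4, retinol-binding protein, fell (-0.46, limma adjusted p = 0.013). Bright adipocyte markers were present on all 6 arrays, as the tissue label has it.

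Macrophages also make FABP4, FABP5 and LPL, and none of their tested markers passed. Of 9 tested (of 15 listed), 8 lay below 0 (53.4% of all tested probe sets) with a median of -0.27, 5 had groups that did not overlap in that direction (9.76% of all tested) and 0 passed in limma, where 4 had an unadjusted p under 0.05. With the replicate block C1QA, a complement component that macrophages secrete, passed (-0.44, limma adjusted p = 0.035). The summed signal was 8976 to 11352 in boars and 8464 to 9779 in barrows. The brightest were C1QC (-0.23, limma adjusted p = 0.53) and CD163 (0.15, limma adjusted p = 0.69). A dimmer CD163 probe set went the other way (-0.70, limma adjusted p = 0.094), with groups that did not overlap. The part of macrophages in the FABP4 and FABP5 values was not tested.

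Among fibroblast and progenitor markers 5 of 8 lay above 0 (median 0.07), and among smooth muscle and pericyte markers 3 of 7 (median -0.01), with 0 past the threshold in both. When replicate number was a block, 3 of these passed, beside 2.35% of all tested probe sets. FBLN1, a matrix protein, rose (0.50, limma adjusted p = 0.047), and DPT, another (-0.32, 0.041), and KCNJ8, a pericyte potassium channel (-0.49, 0.048), fell. The brightest were DCN (-0.03, limma adjusted p = 0.93) and LUM (0.10, 0.90), which are matrix proteoglycans, and ACTA2 (-0.32, 0.32) and TAGLN (-0.01, 0.98), which are contractile proteins. Of the lymphocyte markers 3 of 10 were tested, all dim and below 0 (median -0.24), and 0 passed.

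Proteins that help LPL act were also read. LMF2, a relative of the factor that folds lipases, gave 0.25 (limma adjusted p = 0.46), and ANGPTL4, a secreted inhibitor of LPL, -0.12 (limma adjusted p = 0.73). APOE, the lipoprotein ligand of VLDLR, read 13052, 13882 and 13548 in boars and 15629, 14786 and 15429 in barrows. Its groups did not overlap, but the difference of 0.18 did not pass (95% interval 0.05 to 0.31, limma adjusted p = 0.23).

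Of the other acyl-CoA synthetases, ACSL3, ACSL4 and ACSL5 had 0.08, -0.07 and -0.04 in their brightest probe sets (limma adjusted p = 0.90, 0.76 and 0.95). The dimmer ACSL5 probe sets had -0.14 and -0.24 (limma adjusted p = 0.70 and 0.46). Groups did not overlap for ACSL4 and for the ACSL5 probe set at -0.14, each lower in barrows. The acyl-CoA carriers DBI and ACBD6 had 0.04 and -0.16 (limma adjusted p = 0.85 and 0.64). CPT1A, which passes acyl groups to mitochondria, had -0.09 (limma adjusted p = 0.75). In this step of the pathway no gene was called in either direction.

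Caveolae take part in fatty acid entry at the adipocyte surface. Their coat proteins CAV1, CAV2 and CAVIN2 had 0.05, -0.01 and 0.13 in their brightest probe sets (limma adjusted p = 0.86, 0.99 and 0.55). Dimmer probe sets had 0.04 and -0.09 for CAV1, -0.15 for CAV2 and 0.06 for CAVIN2, and none passed. The receptors that sense fatty acids and drive many members gave 0.07 for PPARG (95% interval -0.09 to 0.23, limma adjusted p = 0.78) and 0.47 for PPARD (95% interval -0.08 to 1.03, limma adjusted p = 0.50). PPARD was dim and uneven, at 158, 104 and 255 in boars and 235, 215 and 247 in barrows. ACSL3, ACSL5, DBI, CAV1, CAV2 and PPARG were picked for their roles after their values had been seen.

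**Figure D4:**
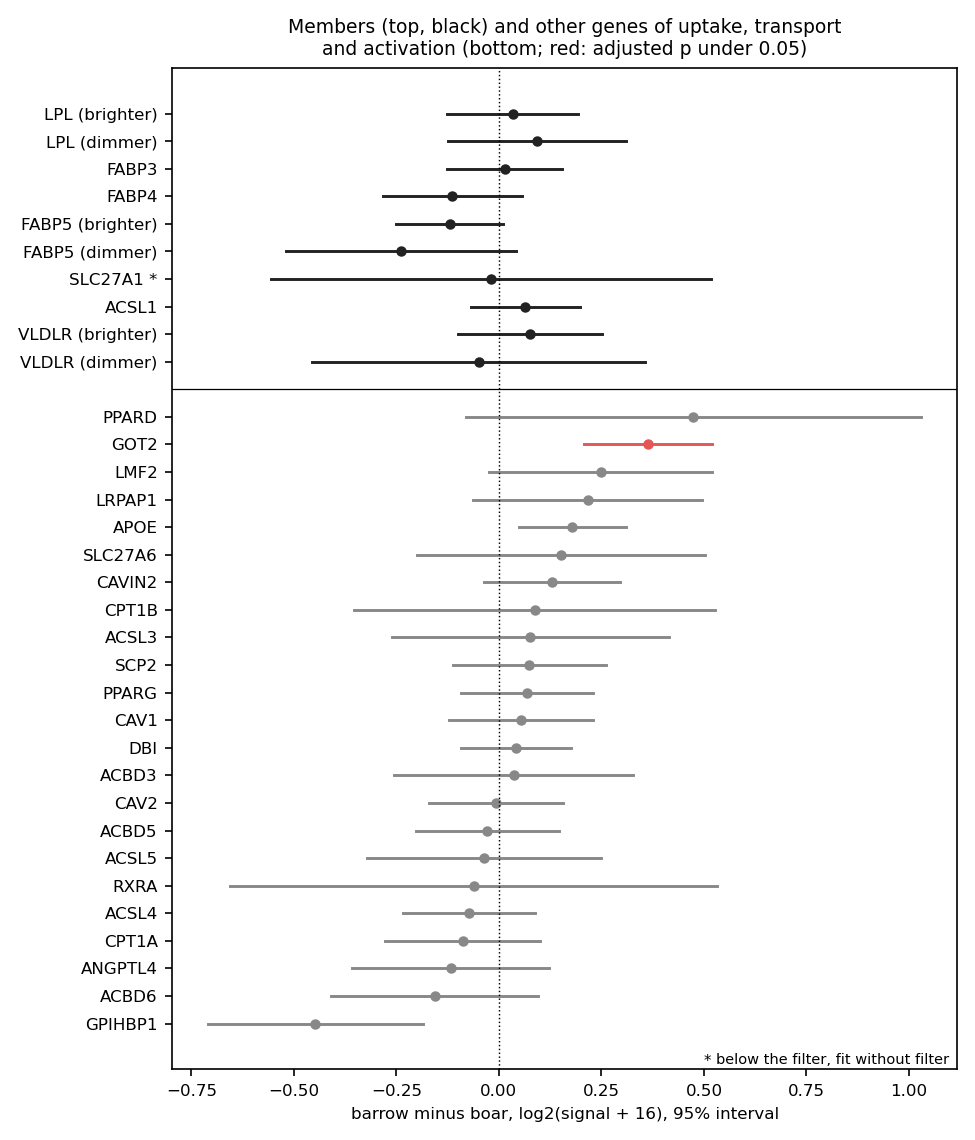
Barrow minus boar difference on the log2(signal + 16) scale with its 95% interval for the 10 member probe sets (top, black) and the 23 other tested genes of uptake, transport and activation (bottom), with the 1 gene past a limma adjusted p of 0.05, GOT2, in red. All 10 member intervals include 0, and those of the dim SLC27A1 and VLDLR probe sets are the widest among the members together with the dimmer FABP5.

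Across the series the 6 arrays were alike. Log2 signals correlated at 0.978 to 0.988 within groups and 0.975 to 0.983 between them. The log2 ratio of 3' to 5' signal, a measure of RNA integrity, was 1.99 to 2.12 in boars and 1.85 to 2.12 in barrows for actin and 1.24 to 1.36 and 1.09 to 1.44 for GAPDH (exact 2-sided permutation p = 0.8 for both).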

How the data were processed

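Backfat RNA pools of boars and barrows were measured on 6 Affymetrix porcine arrays, 3 per group. Per the submitters' processing notes the deposited intensity values are linear MAS5 signals. The MAS5 version is not given in the sources used here. The 2% trimmed mean was 500.1 on every array, as tested on the values, so the authors' global scaling was kept. Median signals were 162 to 173. Precision is limited by having 6 arrays.

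Of 24123 probe sets, 124 controls were left out. Symbols came from the platform annotation, in which 10099 probe sets had 1 symbol, 198 several and 13826 none. All 7 member symbols were found through their gene identifiers in RefSeq (Sscrofa11.1). No coordinates are given, since the array names no build. Signals were taken as log2(signal + 16), a scale on which changes of dim genes look smaller. The upper 60% by mean log2 signal, 14399 probe sets, were fitted with limma 3.58.1 in R 4.3.3 (lmFit, eBayes with intensity trend, 2-sided), with Benjamini-Hochberg adjustment over all of them at 0.05 and 95% intervals. The fit was tested on simulated data with planted differences, all larger than that of any member probe set. That test therefore does not bear on differences of the members' size.

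The members and gene lists were chosen with earlier results of these data known. Named genes were all members, genes of the wider list past the threshold or among the 5 lowest p per direction, the 2 brightest and any changed marker per list, and the 3 closest profiles to LPL and FABP4. The comparison of 2 probe sets of a gene was added after seeing the data. The labels do not say what a replicate number shares. Same-numbered boar and barrow pools had residual correlations of 0.12, 0.17 and 0.26, above the minimum of 0.1 set for pairing. The main fit nevertheless had no pairing, and the replicate number was a block only in an alternative fit. Alternatives changed the pseudocount, filter, normalization, trend, weights, block, probe set summary or left out 1 array.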

Additional observations from a re-analysis of the deposited data

How the results depend on the processing

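In all 16 alternatives 0 member probe sets passed. The differences of FABP4, both FABP5 probe sets, ACSL1 and the brighter VLDLR kept their sign in all 16. FABP4 ran from -0.18 to -0.05. The brighter FABP5 by itself ran from -0.15 to -0.10, and the mean of the FABP5 probe sets gave -0.18. FABP3 went to -0.01 (-0.0146) under quantile normalization and the dimmer VLDLR to 0.01 (0.0135) with the mean of probe sets. With 1 array left out, FABP3 ran from -0.0205 to 0.0547, the dimmer VLDLR from -0.1806 to 0.0917, the brighter LPL from -0.0068 to 0.0984, the dimmer LPL from -0.0363 to 0.1786 and ANGPTL4 from -0.2189 to 0.0136. None of these differences was called in any setting, and the cause was not tested.

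Over all probe sets the count of 167 became 96 without a filter, 32 without the intensity trend, 425 with array weights and 338 with the replicate block, and 24 to 291 with 1 array left out (24 and 31 when boar replicate 1 or 3 was dropped, 53, 291 and 66 when barrow replicate 1, 2 or 3 was). Among the 23 other genes the 1 call became 0 without a filter, under median centring and without the trend, 2 with array weights, and 0 to 2 with 1 array left out. The replicate block changed no call of a member or of these genes. The 95% intervals of the member probe sets above 10000 signal units reached at most 0.31 from 0, and those of the tested dimmer ones at most 0.52.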
